A study of Lupinus albus with 12 samples.

Results

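The difference between the phosphorus response of roots and that of leaves was examined in white lupin (Lupinus albus var. Ultra), a legume whose roots bear dense clusters of short rootlets, known as proteoid or cluster roots, under phosphorus shortage. For each assembled transcript sequence, the response is the mean of the phosphorus-deficient libraries minus that of the phosphorus-sufficient libraries on the log2(RPKM + 0.5) scale, and the difference is the root response minus the leaf response. Of 125535 sequences, 87081 reached 1 RPKM (reads normalized for sequence length and library size, the unit the values were taken to be in) in at least 3 of 12 libraries and were tested. The difference passed an adjusted p of 0.05 in 52 of these, 0.0597% of the sequences tested.

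The 4 groups had 3 biological replicates each. Sufficient roots and sufficient leaves came from plants given 1 mM calcium phosphate, and deficient roots and deficient leaves from plants given calcium sulfate at 1 mM in its place. All plants were of the same cultivar and were harvested 14 days after emergence. The labels call the deficient root samples proteoid roots and give the sufficient ones only as roots, so root type differed together with supply in the roots, and the 2 cannot be told apart in the difference. In bulk samples, fewer cells of a type and less RNA per cell cannot be told apart either.

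Plants short of phosphate release acid phosphatases, ribonucleases and organic acids into the soil, raise high-affinity phosphate transporters, and replace part of their phospholipids with galactolipids and sulfolipids. In Arabidopsis, SPX proteins sense phosphate, PHR1 switches the starvation genes on, and PHO2, a ubiquitin-conjugating enzyme, marks phosphate transport proteins for breakdown until a microRNA silences it in starvation. Roots carry out the uptake and secretion, whereas salvage of phosphate from RNA and lipids also takes place in leaves. Below, 3 values given together stand for replicates 1, 2 and 3, and n = 3 in every group.

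The tissues matched their labels. The summed level of 47 light-harvesting antenna sequences was 50.7 to 89.3 RPKM in the root libraries and 14840 to 62640 RPKM in the leaf libraries, and that of 52 root marker sequences was 1205 to 2956 RPKM in roots and 23.3 to 122.9 RPKM in leaves. One leaf library stood apart. In deficient leaf replicate 3 the 20 highest sequences, of which 3 have an informative description, held 70.9% of the summed RPKM, and the median tested sequence was at 0.9 RPKM, against 2.1 to 2.7 RPKM in the other 11 libraries. The median leaf response over all sequences tested was -0.24 and the median difference 0.27. Without that library these medians were 0.06 and -0.06, and after scaling each library by its median ratio to a reference they were -0.03 and 0.04. A difference given below therefore lies 0.27 further from the median sequence where it is negative, and 0.27 nearer to it where it is positive.

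The difference was nearly one-sided. Of the 52 sequences, 51 had a root response above the leaf response (0.0586% of those tested) and 1 had the reverse (0.00115%). Median-of-ratios scaling gave 68 calls (0.0781%) and moved this split to 54 higher and 14 lower, and quantile normalization to 64 higher and 10 lower. With the replicate number as a block within each tissue, 84 sequences passed (0.0965%), 80 higher and 4 lower (0.00459%), and these held all 52. Without deficient leaf replicate 3 there were 32 (0.0367%), 1 of them lower (0.00115%), and 30 were among the 52. Leaving out sufficient leaf replicate 1 or deficient leaf replicate 1 raised the count to 268 and 176. Leaving out any of sufficient root replicates 1 and 3, deficient root replicates 2 and 3, sufficient leaf replicates 2 and 3 or deficient leaf replicate 2 lowered it to between 28 and 33.

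Presence in the other tissue separated the 52 into unequal classes. In the class with a mean under 1 RPKM over the 6 leaf libraries, 38 of 16110 sequences tested passed (0.236%). In the class present in both tissues, with a mean of 1 RPKM or more in each, 10 of 51896 passed (0.0193%). In the class under 1 RPKM in roots, 4 of 12760 passed (0.0313%). Among 6315 sequences under 1 RPKM in both tissues, limma called 0, with 292 higher and 153 lower at an unadjusted p under 0.05. The block within each tissue gave 58 calls for the class low in leaves and 20 for the class present in both. Of the members nearest the boundary, CYP76C7 LAGI01_31098 had a leaf mean of 1.38 RPKM and counted as present in both tissues, while FRD3 LAGI01_21605 had a leaf mean of 0.817 RPKM and counted as low in leaves.

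**Figure D1:**
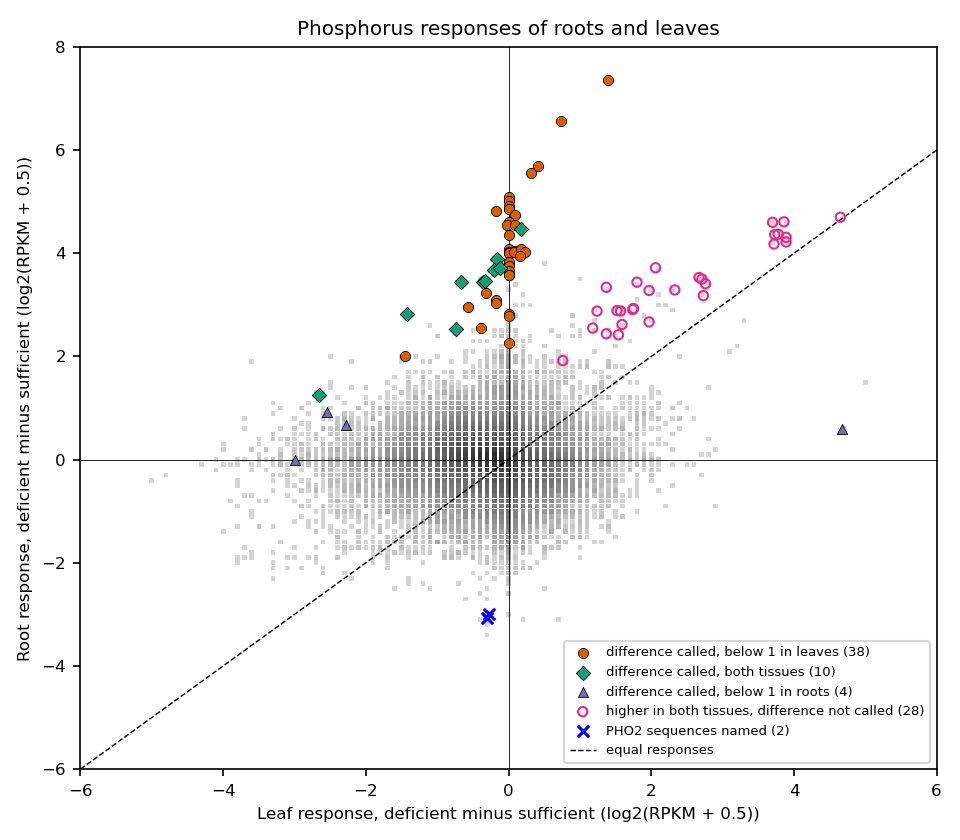
Root response (vertical axis) against leaf response (horizontal axis), both deficient minus sufficient on the log2(RPKM + 0.5) scale; grey squares are bins of all 87081 sequences tested, darker where they hold more sequences, and the dashed line marks equal responses. The 38 called sequences low in leaves stand at root responses of 2.0 to 7.36 and leaf responses of -1.45 to 1.4, with a median of 0.0, the 10 called sequences present in both tissues stand at leaf responses of -2.65 to 0.17, and the 28 open circles lie nearer to the dashed line.

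Most of the 52 were genes that rose in phosphorus-deficient roots and were hardly detected in leaves at either supply. With leaf values this low the difference is close to the root response, so the choice of these sequences fixed a high root response and their root values are a description. All 38 were root calls, which 0.279% of all sequences tested were in either direction and 0.245% as a rise. In each, every deficient root library stood above every sufficient root library, and the share of all sequences tested that separate so was not counted. Their root responses ran from 2.0 to 7.36, with a median of 4.03. In the leaf libraries 17 of them were listed at 0 in all 6, and 26 were at 0.1 RPKM or less in every library. The highest leaf value of any of the 38 was 2.2 RPKM. For a sequence listed at 0 in every leaf library, the difference equals the root response, and no leaf response could be read.

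PAP10, a purple acid phosphatase that in Arabidopsis is held at the root surface and frees phosphate from organic compounds, gave the largest difference. The PAP10 sequence LAGI01_35427 was at 0.3, 0.7 and 0.8 RPKM in sufficient roots and at 147.6, 183.1 and 202.8 RPKM in deficient roots. In leaves it was listed at 0 in the 3 sufficient libraries and at 0.3, 1.3 and 1.1 RPKM in the deficient ones. The root groups were far apart, and the deficient leaf libraries lay above the sufficient leaf libraries at levels close to the lowest root values. The difference was 5.96 ± 0.51 (SE) on the log2 scale, with a 95% interval of 4.88 to 7.04 and adjusted p = 4.24e-05. Its leaf response of 1.40 had an unadjusted p of 0.00127 and did not pass adjustment (0.243).

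Of 9 PAP10 sequences tested, 4 passed, with differences of 5.23 to 5.96. They were at 0.2 to 0.8 RPKM in sufficient roots and 27.7 to 202.8 RPKM in deficient roots. The 5 PAP10 sequences present in both tissues behaved otherwise: they stood at 6.4 to 45.4 RPKM in sufficient roots and 6.1 to 39.1 RPKM in deficient roots, and their differences of -0.66 to 1.58 did not pass. How reads were divided between near-identical sequences of 1 description is not given in the sources used here, so the number of genes behind these sequences is uncertain.

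Phosphate transporters described as PHT5 showed the same contrast between copies. LAGI01_79525 was at 0.9, 4.5 and 2.8 RPKM in sufficient roots and at 102.6, 68.1 and 90.2 RPKM in deficient roots, and was listed at 0 in all 6 leaf libraries. Its root groups did not overlap, and the difference was 4.92 ± 0.56 (SE; adjusted p = 0.000723). Of 8 PHT5 sequences tested, 3 passed. Another 3 were present in both tissues at 36.0 to 142.1 RPKM in sufficient roots and 35.4 to 125.8 RPKM in deficient roots, with leaf responses of -2.42 to -1.27, and their differences of 1.35 to 1.93 did not pass.

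The multicopper oxidases LPR1 and LPR2, which in Arabidopsis act with iron to halt root growth at low phosphate, were among the most abundant of these sequences. LPR1 LAGI01_52976 was at 5.9, 10.1 and 11.8 RPKM in sufficient roots and at 158.7, 223.3 and 292.5 RPKM in deficient roots. It was at 0.1 RPKM or less in every leaf library, and its difference was 4.45 ± 0.51 (SE; adjusted p = 0.000723). LPR2 LAGI01_46294 was at 8.2, 11.5 and 11.2 RPKM in sufficient roots and at 164.6, 194.1 and 187.2 RPKM in deficient roots. It too was at 0.1 RPKM or less in every leaf library, and its difference was 3.91 ± 0.45 (SE; adjusted p = 0.000723). These were the members that passed among 5 LPR1 and LPR2 sequences tested; 2 further LPR1 sequences were higher in leaves, at 4.7 to 25.3 RPKM, than in roots, at 1.4 to 3.3 RPKM, and had differences of -0.85 and -0.64 that did not pass.

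FRD3, a citrate exporter of the MATE family that in Arabidopsis loads citrate into the xylem, was represented by 4 of 12 sequences tested. FRD3 LAGI01_20061 was at 2.4, 4.7 and 4.2 RPKM in sufficient roots and at 73.1, 70.5 and 58.6 RPKM in deficient roots, was listed at 0 in all leaf libraries, and had a difference of 4.03 ± 0.44 (SE; adjusted p = 0.000579). The most abundant copy, LAGI01_21605, went from 3.7, 19.9 and 27.8 RPKM to 253.1, 298.9 and 408.5 RPKM in roots and stood at 0.4 to 1.3 RPKM in leaves. Its sufficient root libraries spread widely, and its difference of 4.57 ± 0.79 (SE; adjusted p = 0.0436) lost the call when any of 7 libraries was left out: sufficient root replicate 2, deficient root replicates 2 and 3, sufficient leaf replicates 2 and 3, or deficient leaf replicates 2 and 3, with adjusted p of up to 0.278. Median-of-ratios scaling also ended it (adjusted p = 0.128), leaving 3 FRD3 calls.

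Malate synthase (MLS), an enzyme of the glyoxylate cycle that makes malate from glyoxylate and acetyl-CoA, passed in 3 of 4 sequences tested. MLS LAGI01_77756 was at 7.5, 13.8 and 7.5 RPKM in sufficient roots and at 87.9, 146.5 and 117.9 RPKM in deficient roots, and was listed at 0 in all leaf libraries. Its difference was 3.57 ± 0.49 (SE; adjusted p = 0.00445). The fourth sequence was the most abundant, at 12.2 to 29.5 RPKM in sufficient roots and 128.0 to 254.3 RPKM in deficient roots, and its difference of 3.06 had an adjusted p of 0.066; with the block within each tissue all 4 passed.

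A transcription factor, wall enzymes and membrane proteins were also among the 38. BHLH038, a transcription factor that in Arabidopsis partners FIT to switch on iron uptake, passed in 2 of 4 sequences: LAGI01_54427 was at 0.2 RPKM in each sufficient root library and at 9.2, 10.3 and 15.4 RPKM in deficient roots, and was listed at 0 in leaves (difference 4.08 ± 0.45 SE, adjusted p = 0.000579). Secretory peroxidases, haem enzymes that cross-link or loosen cell walls, passed in 4 of 103 sequences of the description "peroxidase, putative". Peroxidase LAGI01_58965 varied little within groups, at 1.3, 1.4 and 1.2 RPKM in sufficient roots and 43.0, 40.4 and 46.8 RPKM in deficient roots, listed at 0 in leaves, with a difference of 4.61 ± 0.40 (SE; adjusted p = 4.24e-05). A further 8 peroxidase sequences rose in roots by 1.67 to 2.46 and did not pass for the difference. Putative nodulin LAGI01_56202 was at 0, 0.6 and 1.1 RPKM in sufficient roots and at 15.4, 46.3 and 39.8 RPKM in deficient roots, and was listed at 0 in leaves. Its difference of 5.02 (adjusted p = 0.00159) missed the threshold without deficient leaf replicate 3 (adjusted p = 0.0538). The aquaporin PIP2;4 passed in 1 of 6 sequences, with a difference of 3.55; it kept the call without sufficient root replicate 1, deficient root replicates 1 and 3, sufficient leaf replicates 1 and 2 or deficient leaf replicate 1, and lost it without any other library (adjusted p up to 0.146).

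**Figure D2:**
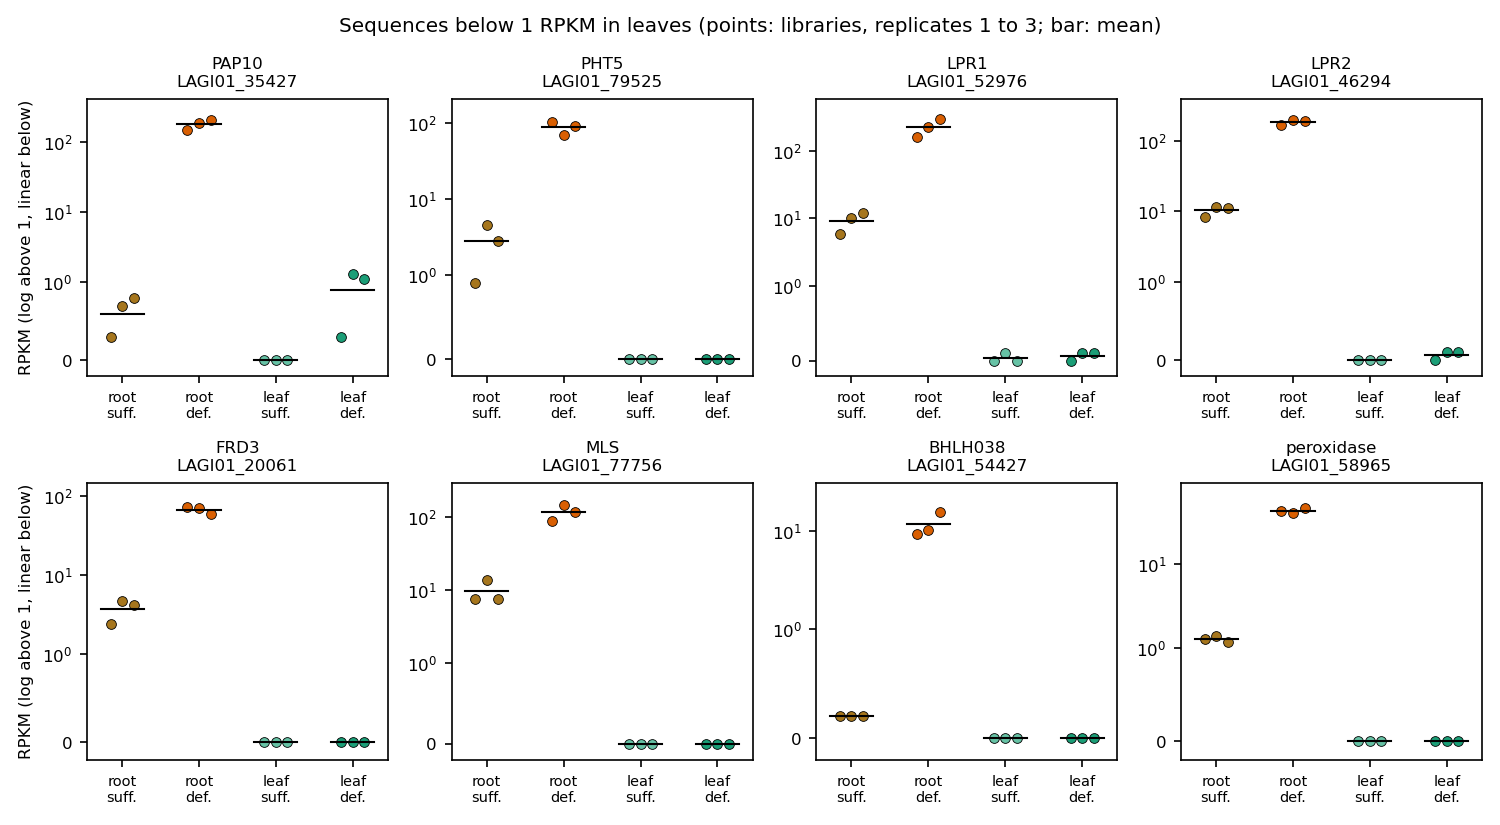
RPKM in each library (vertical axis, logarithmic above 1 RPKM and linear below) of 8 called sequences under 1 RPKM in leaves; points are replicates 1 to 3 of each group and bars their means. In every panel the deficient root libraries stand above the sufficient root libraries and the leaf libraries lie at or close to 0, except that PAP10 reached 1.3 RPKM in deficient leaves.

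The spread behind these p-values came from unequal tissues. In the 38 sequences low in leaves the median SD of the log2 values within groups was 0.343 in roots and 0.107 in leaves, because most leaf values were 0, and the fit averages both. Fitted with the 6 root libraries alone, which are the libraries that chose them, 22 of the 38 passed for the root response. The count over all sequences in that fit is given below with the other processing settings. Leaving out each of the 12 libraries in turn kept 23 of the 38 calls in all 12 fits, among them the 4 PAP10 sequences, LPR1, LPR2 and both BHLH038 sequences.

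Among sequences present in both tissues, the 10 that passed had a root response above the leaf response, and limma called 0 in the other direction; at an unadjusted p under 0.05 there were 2028 higher (3.91%) and 330 lower (0.636%) of 51896. With median-of-ratios scaling the class had 6 higher and 8 lower calls, and with the block within each tissue 19 higher and 1 lower, LAGI01_61664. The count of 10 became 94 without sufficient leaf replicate 1, 118 without deficient leaf replicate 1, 18 without deficient root replicate 1 and 1 to 4 without any other library. In 8 of the 10 the root response alone reached an unadjusted p of 0.05. Every deficient root library stood above every sufficient root library in all 10. These values are part of the difference that chose the 10, and the share of all sequences that separate so was not counted.

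Formamidase, which splits formamide into formate and ammonia, accounted for 6 of the 10. Formamidase LAGI01_48402 was at 1.7, 3.4 and 2.7 RPKM in sufficient roots and at 31.8, 49.5 and 53.9 RPKM in deficient roots. Sufficient leaves had 2.7, 4.8 and 5 RPKM and deficient leaves 5.4, 5.2 and 1.5 RPKM. The leaf groups overlapped and the root groups did not, and the difference was 4.04 ± 0.64 (SE; 95% interval 2.68 to 5.4, adjusted p = 0.0232). Across the 6, levels in sufficient roots (0.3 to 3.6 RPKM) were like those in leaves (0.6 to 5.4 RPKM), and deficient roots reached 9.4 to 53.9 RPKM. All 7 formamidase sequences tested rose in roots by 3.44 to 3.88, the seventh had an adjusted p of 0.0672 for the difference, and all 7 passed with the block within each tissue. The call of LAGI01_48402 held in 5 of the 12 fits with 1 library left out, those without sufficient root replicate 2, deficient root replicate 1, sufficient leaf replicate 1 or deficient leaf replicate 1 or 3, and adjusted p reached 0.101 in the others. Without deficient leaf replicate 3 only LAGI01_48402 of the 7 passed (adjusted p = 0.0434), and with median-of-ratios scaling 3 did. LAGI01_50013, with the largest difference of the family (4.11), had adjusted p = 0.0106 with all libraries and 0.116 without that library.

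ALDH11A3, a non-phosphorylating glyceraldehyde-3-phosphate dehydrogenase that makes NADPH without using phosphate, was near the bottom of the measured range in sufficient roots and well expressed in leaves. ALDH11A3 LAGI01_24999 was at 0.1, 0.3 and 0.4 RPKM in sufficient roots and at 9.4, 20.8 and 22.2 RPKM in deficient roots. Sufficient leaves had 26.7, 11 and 11.3 RPKM and deficient leaves 30.7, 21.1 and 7.3 RPKM, so that deficient roots came to the leaf level. The difference was 4.31 ± 0.74 (SE; adjusted p = 0.04). The call held in 3 of the 12 fits with 1 library left out, those without deficient root, sufficient leaf or deficient leaf replicate 1, and adjusted p reached 0.144 in the others. The other 2 ALDH11A3 sequences rose in roots by 4.42 and 4.47 and had an adjusted p of 0.066 for the difference. All 3 passed with the block within each tissue, and 0 of 3 with median-of-ratios scaling, where LAGI01_24999 had an adjusted p of 0.0798.

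ATIREG1, an exporter of iron and related metals that in Arabidopsis works in the root stele, was at 3.8, 3.1 and 2.4 RPKM in sufficient roots (LAGI01_21878) and at 22.8, 20.8 and 17.3 RPKM in deficient roots. Leaf levels were 6.3, 6.5 and 7.4 RPKM at sufficient supply and 5.7, 4.9 and 1.9 RPKM at deficient supply. Leaves exceeded roots at sufficient supply and roots exceeded leaves at deficient supply, in every library. The difference was 3.28 ± 0.56 (SE; adjusted p = 0.0383), and it was called in 3 of the 12 fits with 1 library left out, those without sufficient leaf replicate 1, deficient leaf replicate 1 or deficient leaf replicate 3; the highest adjusted p of the others was 0.147.

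The 2 remaining members moved in opposite directions in the tissues, each response reaching an unadjusted p of 0.05. GAMMA-VPE LAGI01_27411, a vacuolar cysteine protease that matures vacuolar proteins, was at 12.0, 9.4 and 10.8 RPKM in sufficient roots and at 50.4, 20.2 and 17.5 RPKM in deficient roots. Sufficient leaves had 17.4, 15.1 and 11.8 RPKM and deficient leaves 1.3, 4.0 and 1.2 RPKM. Neither pair of groups overlapped. The root response was 1.25 (unadjusted p = 0.0162) and the leaf response -2.65 (unadjusted p = 3.03e-05, adjusted p = 0.0579), and the difference was 3.91 ± 0.66 (SE; adjusted p = 0.0383). The other 5 GAMMA-VPE sequences had differences of 0.03 to 0.67. Leaving out any sufficient root library, deficient root replicate 2, sufficient leaf replicate 2 or 3, or deficient leaf replicate 3 ended the call, with adjusted p up to 0.169.

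CYP76C7 LAGI01_31098, a cytochrome P450, was at 0.2, 0.5 and 0.7 RPKM in sufficient roots, 5.6, 5.9 and 7.3 RPKM in deficient roots, 2.3, 1.2 and 2.8 RPKM in sufficient leaves and 1.8, 0.1 and 0.1 RPKM in deficient leaves. The leaf groups overlapped through deficient leaf replicate 1. The root response was 2.83 (adjusted p = 0.00897), the leaf response -1.42 (unadjusted p = 0.0071), and the difference 4.25 ± 0.65 (SE; adjusted p = 0.0165). Leaving out sufficient root replicate 1, deficient root replicate 2 or 3, sufficient leaf replicate 3, or deficient leaf replicate 2 or 3 ended the call, with adjusted p up to 0.161. A second CYP76C7 sequence, LAGI01_30950, passed among those low in leaves, with a difference of 3.57, and kept the call in 5 of 12 such fits, without sufficient root replicate 1 or 3 or without replicate 1 of another group. Median-of-ratios scaling ended both calls (adjusted p of 0.0721 for LAGI01_31098 and 0.0828 for LAGI01_30950).

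**Figure D3:**
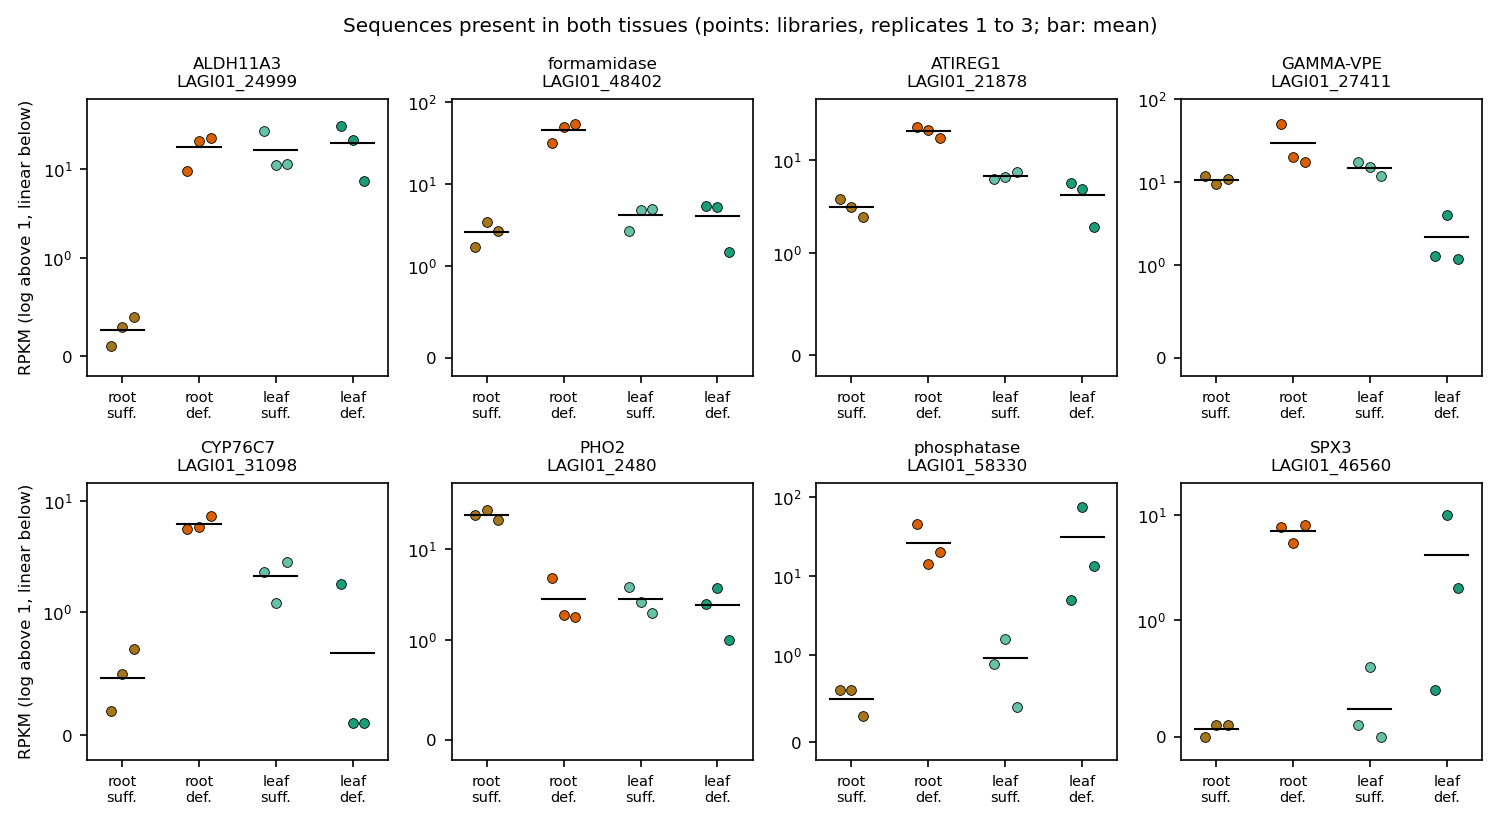
RPKM in each library (vertical axis, logarithmic above 1 RPKM and linear below) of 8 sequences present in both tissues; points are replicates 1 to 3 and bars group means. The first 5 panels are called for the difference; PHO2 falls in roots from 21.3 to 27.3 RPKM to 1.8 to 4.8 RPKM with overlapping leaf groups, and phosphatase LAGI01_58330 and SPX3 LAGI01_46560 are higher with deficient phosphorus in both tissues.

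The 4 called sequences low in roots all passed for the leaf response. With root values this low, the difference rests mostly on the leaf response. The choice of these sequences therefore fixed a large leaf response, and their leaf values are a description. Leaf calls depended on the fit: 24 sequences passed in all, and limma called 0 with the leaf libraries fitted alone, 0 with a clock gene covariate described below, 0 without deficient leaf replicate 3 and 253 with the block within each tissue. The linalool synthase TPS14 LAGI01_73631, which makes a floral and defence terpene alcohol, was at 7.7, 5.9 and 7.7 RPKM in sufficient leaves and fell to 1.7, 1.4 and 0.4 RPKM in deficient leaves (leaf response -2.28, adjusted p = 0.0403; 0.0276% of all sequences tested passed for the leaf response, 0.0172% as a fall). Sufficient roots had 0.2, 0.5 and 0.2 RPKM and deficient roots 1.0, 0.6 and 0.7 RPKM. The difference was 2.95 ± 0.51 (SE; adjusted p = 0.0448). It was called in 3 of the 12 fits with 1 library left out, those without sufficient leaf replicate 1, deficient leaf replicate 1 or deficient leaf replicate 3, and the highest adjusted p was 0.149.

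The only sequence with a leaf response above the root response, LAGI01_72026, has no description. It was at 0.8, 0.2 and 0.1 RPKM in sufficient leaves and at 13.6, 51.5 and 11.8 RPKM in deficient leaves, against 0.1 to 1.3 RPKM in roots, and it was among the 0.0103% that rose in leaves. Its difference was -4.07 ± 0.71 (SE; adjusted p = 0.0457). The other 2, LAGI01_65417 and LAGI01_51568, also lack a description and were lower in deficient leaves. LAGI01_65417 moved in opposite directions: it was at 0.3, 0.4 and 0.6 RPKM in sufficient roots and 2.2, 0.7 and 1.2 RPKM in deficient roots (root response 0.93, unadjusted p = 0.0394), with a leaf response of -2.55. Each of these 3 kept its call in 3 of the 12 fits with 1 library left out, those without sufficient leaf replicate 1, deficient leaf replicate 1 or 1 deficient root library (replicate 2 for LAGI01_65417, replicate 1 for the others), and adjusted p reached 0.256.

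A further 12 sequences low in roots fell in deficient leaves and did not pass for the difference, at 0.0684 to 0.45. Among them were 3 of 308 DNAJ co-chaperones tested and 2 sequences of the heat stress factor HSFA3, on a list of 102. They also held the cytokinin response regulator ARR9, on a list of 73, and 2 MATE efflux proteins, on a list of 76. Of all sequences tested, 0.0172% fell in leaves. The median leaf responses of these lists were -0.23, -0.13, -0.3 and -0.16 in that order, against -0.24 for all sequences. HSFA3 LAGI01_13765 was at 2.9, 11.5 and 19.0 RPKM in sufficient leaves and at 0.3, 0.6 and 0.3 RPKM in deficient leaves, with 0.2 to 1.0 RPKM in roots and a difference of 3.15 (95% interval 1.67 to 4.64, adjusted p = 0.232). Sufficient leaf replicate 1 was the lowest of the sufficient leaf libraries in 13 of the 15 sequences that fell in leaves. The mean log2 level of 35 morning clock sequences minus that of 40 evening clock sequences was 1.38, -2.37 and -2.28 in the sufficient leaf libraries and 3.05, 1.97 and 1.45 in the deficient ones, so the leaf groups also differed in this measure. For sufficient roots the values were -0.38, -2.21 and -2.37, and for deficient roots 0.68, -0.84 and -1.11. With this measure as a covariate 43 sequences passed for the difference, 38 of them among the 52, and 2 instead of 4 were low in roots. With it limma called 0 of the leaf responses described here.

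PHO2 fell in roots and had the smallest adjusted p for a lower difference among sequences present in both tissues with a description. PHO2 LAGI01_2480 was at 24.1, 27.3 and 21.3 RPKM in sufficient roots and fell to 4.8, 1.9 and 1.8 RPKM in deficient roots (root response -3.00, adjusted p = 0.00366). Sufficient leaves had 3.8, 2.6 and 2.0 RPKM and deficient leaves 2.5, 3.7 and 1.0 RPKM, and those groups overlapped. The difference was -2.72 ± 0.62 (SE; 95% interval -4.03 to -1.42) and did not pass on the deposited scale (adjusted p = 0.249), nor with the block within each tissue (0.0862). Of 14 PHO2 sequences tested, 8 fell in roots (0.0345% of all sequences tested fell), by 2.50 to 3.08, and their leaf responses ran from -0.64 to -0.26. Limma called 0 of the 14 for the difference, with 8 lower and 1 higher at an unadjusted p under 0.05. With median-of-ratios scaling the 8 passed, of 14 sequences called lower in all (0.0161% of those tested), and with replicates 2 and 3 alone, whose libraries were barcoded and shared lanes while those of replicate 1 had a lane each, 5 passed, where 0.284% of all sequences were called lower. The median PHO2 difference was -2.09, against 0.27 for all sequences.

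Other described sequences present in both tissues with a lower difference did not pass either. LP1 LAGI01_65269, described as calmodulin binding, was at 12.7, 28.7 and 27.3 RPKM in sufficient roots and at 0.2, 5.6 and 3.2 RPKM in deficient roots, against 26.4 to 89.3 RPKM in leaves (difference -3.83, adjusted p = 0.318). Patatin-like PLP6 LAGI01_30891, of a family of lipid hydrolases, was at 72.1, 146.7 and 134.4 RPKM in sufficient roots and 25.3, 56.8 and 42.9 RPKM in deficient roots (difference -2.47, adjusted p = 0.469). ChaC-like LAGI01_78615 and the Dof factor OBP1 LAGI01_54990 had differences of -2.34 and -2.22, with adjusted p of 0.401 and 0.422.

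Some genes that rose in deficient roots were also higher in deficient leaves. Of 51 sequences present in both tissues that rose in roots, 28 (54.9%) were higher in leaves at an unadjusted p under 0.05 and did not pass for the difference. At that threshold 0.725% of all sequences present in both tissues were higher in leaves, and 7.76% of all sequences tested differed in either direction. The median leaf response of the 51 was 1.24, against -0.28 for the class, and 9 of the 51 passed for the difference. Presence rests in part on the deficient leaf libraries, so a leaf rise helps to place a low sequence in this class. Among the 28, LAGI01_63011 had a sufficient leaf mean of 0.0333 RPKM and SPX3 LAGI01_46560 of 0.233 RPKM. Of 159 sequences low in leaves that rose in roots, 2.52% were higher in leaves at that threshold. The 54.9% therefore depends in part on the presence rule. In the 28, differences ran from 0.04 to 1.96, with a median of 0.92, and the 95% interval held 0 in 25. In 27 of the 28, deficient leaf replicate 2 was the highest leaf library.

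Enzymes that recycle phosphate were among the 28. Of 16 sequences described only as phosphatase, 10 rose in roots, and 8 of these were among the 28. Phosphatase LAGI01_58330 was at 0.6, 0.6 and 0.3 RPKM in sufficient roots, 45.2, 14.2 and 19.9 RPKM in deficient roots, 0.9, 1.6 and 0.4 RPKM in sufficient leaves and 5.0, 75.9 and 13.4 RPKM in deficient leaves. Neither pair of groups overlapped, and the difference was 0.89 with an interval of -1.18 to 2.97. PAP12 LAGI01_28185, a secreted purple acid phosphatase, went from 2.1, 0.5 and 0.6 RPKM to 33.8, 11.1 and 10 RPKM in roots and from 1.2, 3.6 and 1.3 RPKM to 11.8, 30.9 and 8.6 RPKM in leaves. Its difference was 0.79 with an interval of -0.90 to 2.49, and its leaf response of 2.71 had an adjusted p of 0.113. Of 4 PAP12 sequences tested, 2 were among the 28, and the lowest root response of the 4 was -0.56.

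The phosphate sensors SPX2 and SPX3 were also among the 28. SPX3 LAGI01_46560 was at 0, 0.1 and 0.1 RPKM in sufficient roots, 7.6, 5.4 and 8.1 RPKM in deficient roots, 0.1, 0.6 and 0 RPKM in sufficient leaves and 0.4, 10.1 and 2.0 RPKM in deficient leaves. The root groups were separate and the leaf groups overlapped, and the difference was 1.66 with an interval of -0.16 to 3.48 (adjusted p = 0.865). SPX2 rose in roots in 7 of 9 sequences, 3 of them among the 28, with differences of 1.18 to 1.64 in those 3. Lipid recycling was represented by 4 of 13 sequences described as glycerophosphoryl diester phosphodiesterase family protein (differences 1.30 to 1.64). Also among the 28 were 1 of 8 sequences of the phospholipase PLDP1 (LAGI01_3168, 0.88) and 1 of 11 of the galactolipid synthase MGD2 (LAGI01_25059, 0.95, interval -0.89 to 2.80). Median root and leaf responses were -0.17 and -0.1 over the 8 PLDP1 sequences, and 1.53 and 1.4 over the 11 MGD2 sequences. The intervals given here reach differences of over 2, so they do not show that the tissues responded alike.

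Among sequences present in both tissues 6 rose in leaves, and all 6 were higher in roots at an unadjusted p under 0.05, with root responses of 1.51 to 4.70; 1.29% of the class was higher in roots at that threshold. Apart from PAP17, their sufficient root means were 0.233 to 0.933 RPKM, so the rise in roots itself placed them in this class. The 3 other sequences that rose in leaves did not reach that threshold in roots and were low in roots. The share of 6 in 6 therefore depends in part on the presence rule. PAP17 LAGI01_79787, an acid phosphatase, was the only one of the 6 with a description. It was at 2.3, 2.3 and 3.2 RPKM in sufficient roots, 20.4, 10.5 and 10.7 RPKM in deficient roots, 1.1, 1.2 and 0.4 RPKM in sufficient leaves and 5.1, 30 and 9.8 RPKM in deficient leaves. Its leaf response was 3.16 (adjusted p = 0.0449), its root response 2.16, and its difference -1.01 (adjusted p = 0.871). LAGI01_61664, an unknown protein, was the least equal: it was at 0.5, 0.1 and 0.1 RPKM in sufficient roots, 4.1, 0.7 and 1.0 RPKM in deficient roots, 2.8, 1.9 and 0.1 RPKM in sufficient leaves and 43.2, 126.4 and 25.1 RPKM in deficient leaves. Its root response was 1.51, its leaf response 4.96 and its difference -3.45 (adjusted p = 0.45, and 0.0486 with the block within each tissue). Unannotated LAGI01_63011 had the most equal responses, 4.70 in roots and 4.65 in leaves, with an interval of the difference of -1.54 to 1.63.

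**Figure D4:**
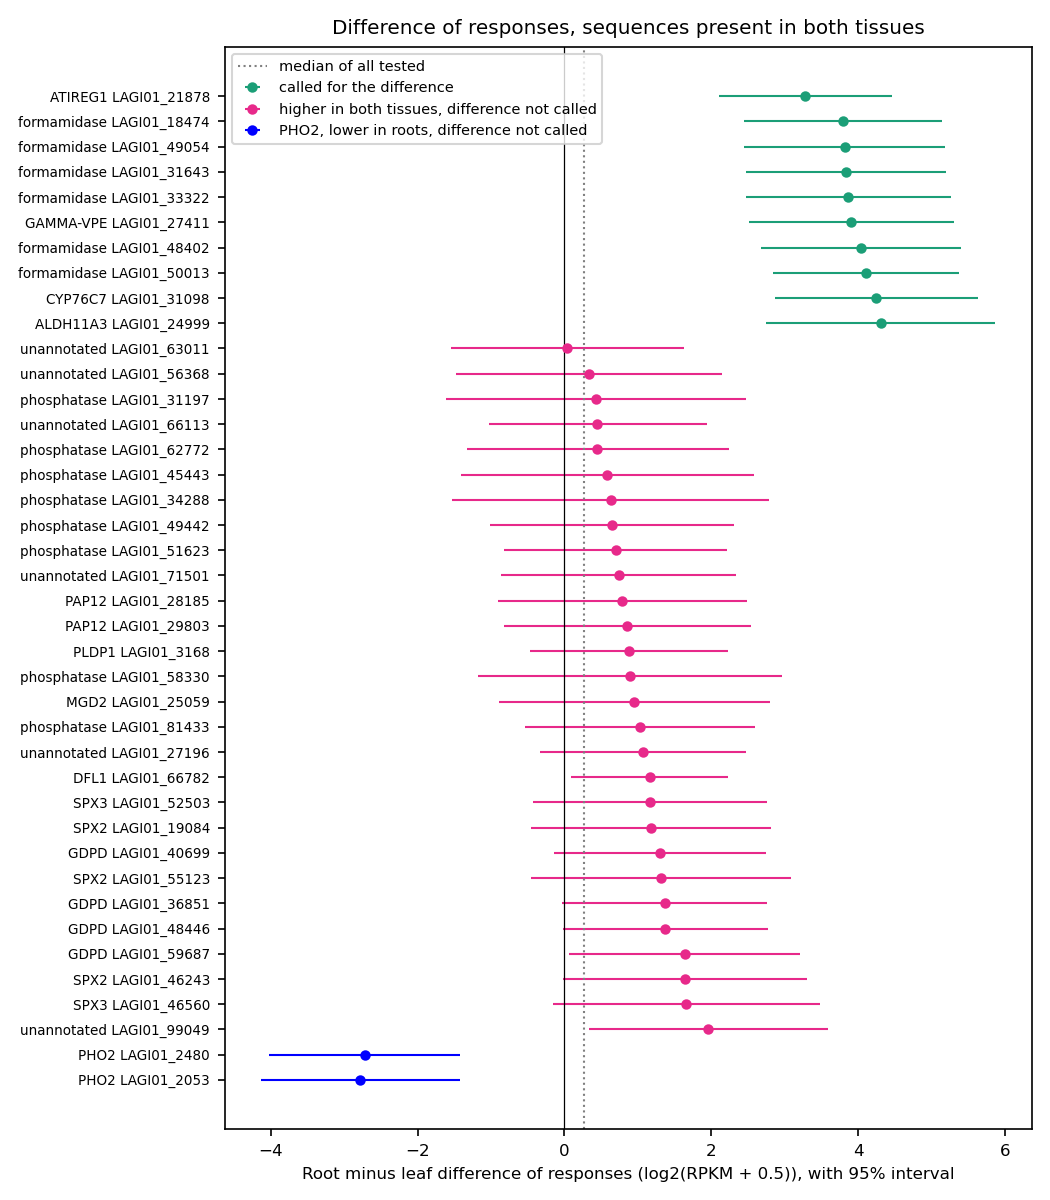
Root minus leaf difference of responses on the log2(RPKM + 0.5) scale (horizontal axis), with its 95% interval, for sequences present in both tissues; the dotted line is the median of all tested, 0.27. The 10 called sequences lie between 3.28 and 4.31, the 28 sequences higher in both tissues between 0.04 and 1.96, and the 2 PHO2 sequences at -2.78 and -2.72.

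Across 29 lists of genes, 8 held a called member and 24 members were called in all. Phosphate transporters had 3 of 78 called, purple acid phosphatases 4 of 58, MATE transporters with FRD3 4 of 76, LPR1 and LPR2 2 of 5, iron genes 3 of 105, malate synthase with isocitrate lyase 3 of 5, secretory peroxidases 4 of 150 and terpene synthases 1 of 7, all with a root response above the leaf response, against 0.0597% of all sequences tested in either direction. The median difference was 3.21 for malate synthase with isocitrate lyase and 0.32 to 0.60 for the other 7, against 0.27 for all sequences. The called members of the iron list were both BHLH038 sequences and ATIREG1.

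In the other 21 lists limma called 0. Over all sequences tested, 5.93% had an unadjusted p under 0.05 for the difference, in either direction, and 0.245% rose in roots. SPX proteins had 0 of 31, with 5 higher and 2 lower at an unadjusted p under 0.05, and 10 that rose in roots. Phosphoenolpyruvate carboxylase and its kinase, which feed malate synthesis, had 0 of 35 with 4 higher unadjusted; ATPPC1 LAGI01_66206 went from 4.8, 4.0 and 5.3 RPKM to 13.4, 26.4 and 19.3 RPKM in roots with 0.1 RPKM or less in leaves (difference 1.91, adjusted p = 0.306). NF-YA subunits, trimeric transcription factor parts, had 0 of 40, with 17 higher unadjusted, a median difference of 1.04 and 11 that rose in roots. NF-YA2 LAGI01_50534 was at 3.5, 3.2 and 2.7 RPKM in sufficient roots, 16.8, 11 and 12.3 RPKM in deficient roots and 0.1 to 0.2 RPKM in leaves, with a difference of 1.99 (adjusted p = 0.172, and 0.0069 with median-of-ratios scaling, where 3 of the 40 passed). Expansins and related wall enzymes had 0 of 175, with 17 higher and 14 lower unadjusted; expansin-like ATEXLB1 LAGI01_53994 came nearest, at 0.6 to 1.4 RPKM and 7.2 to 11.3 RPKM in roots (difference 2.61, adjusted p = 0.066).

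In the photosynthesis lists the leaf medians lay further from 0 than the root medians. However, 33 of the 46 antenna sequences and 45 of the 62 photosystem and RuBisCO sequences were under 1 RPKM in roots. At such levels a root response can hardly be read, and the root medians are held near 0. The whole class under 1 RPKM in roots had a median leaf response of -0.42 and a median difference of 0.45. Light-harvesting antenna proteins had 0 of 46 called, 2 higher unadjusted, and medians of 0.04 in roots, -0.69 in leaves and 0.84 for the difference. Photosystem and RuBisCO small subunits had 0 of 62, 5 higher and 1 lower unadjusted, and a median difference of 0.83. With median-of-ratios scaling these median differences were 0.50 and 0.52. Morning clock genes had a median difference of -0.92 (0 of 35, none at an unadjusted p under 0.05), and evening clock genes 1.06 (0 of 40, 15 higher unadjusted, 8 called with the barcoded replicates alone, where 1.79% of all sequences were). Cytosolic ribosomal proteins had 0 of 565 called, 2 higher and 2 lower unadjusted, and a median difference of 0.53, or 0.20 with median-of-ratios scaling.

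**Figure D5:**
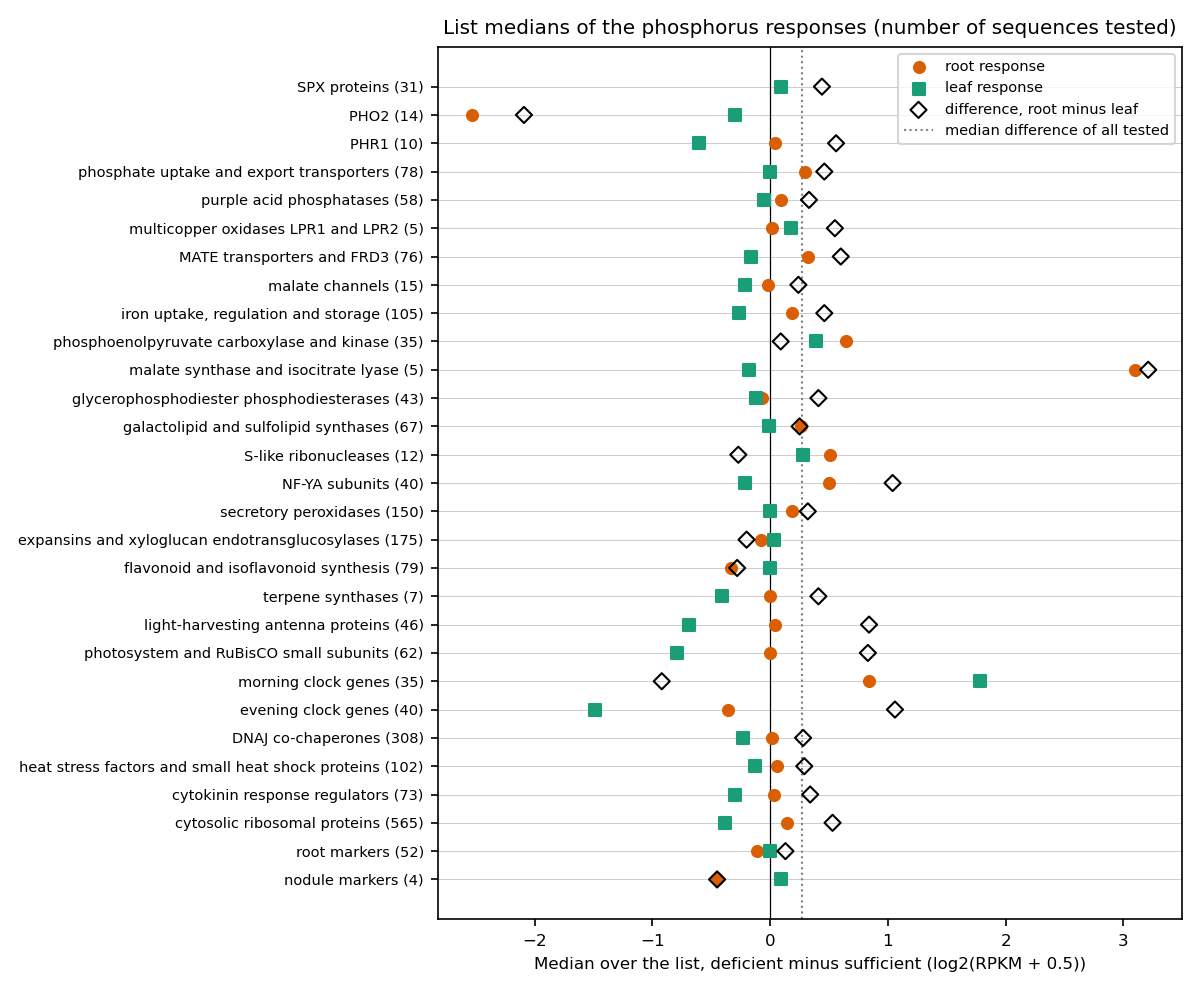
Medians of the root response, the leaf response and the difference (horizontal axis, log2(RPKM + 0.5) scale) for 29 gene lists, with the number of sequences tested in brackets; the dotted line is the median difference of all tested, 0.27. Malate synthase with isocitrate lyase stands at 3.21 and PHO2 at -2.09, and the clock lists lie on either side, at -0.92 and 1.06.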

How the data were processed

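Poly-A RNA of 12 libraries was sequenced with single reads of 76 cycles, per the labels' protocols. Replicate 1 libraries were run 1 per lane, whereas the libraries of replicates 2 and 3 carried barcodes and shared lanes, 2 to a lane. One label field names soil as the growth medium and another a nutrient solution. Bowtie is named, without version or role, per the submitters' processing notes. RPKM was taken as the unit of the deposited values, although no source used here names it: the authors' table gives 1 decimal, and the counting of reads shared by similar sequences is not given. No read counts were used, so the depth is unknown and a count test could not be run.

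Only sequences that reached 1 RPKM in 3 libraries or more entered the tests, after a transformation to log2(RPKM + 0.5), which understates changes of low sequences. Limma 3.58.1 under R 4.3.3 fitted 4 group means over all 12 libraries, with its trend option for the variance; contrasts were the 2 responses and their difference, with Benjamini-Hochberg adjustment over 87081 sequences and a call at an adjusted p under 0.05. The root and leaf responses share no library but share the estimate of spread. Presence was the mean over the 6 libraries of a tissue, at 1 RPKM. Intervals are 95% from the moderated fit. The procedure was tested on simulated data. Python 3.11.15, pandas 2.3.3 and matplotlib 3.10.9 made tables and figures.

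Same-numbered libraries deviated together within tissues: correlations of deviations from group means were 0.751, 0.399 and 0.644 in roots and 0.237, 0.237 and 0.126 in leaves. Root libraries 2 and 3 with unlike numbers reached 0.472 and 0.441, above the 0.399 of replicate 2. In leaves, sufficient replicate 2 with deficient replicate 3 reached 0.106, near the 0.126 of replicate 3. The correlations thus do not show that replicates 2 and 3 pair by number. The block within each tissue assumes that the numbers pair samples. The fit with that block is given where it changed a call or a count by over 1.5 times. Nothing in the labels ties a number to a plant or day.

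The contrast, gene lists and alternatives were chosen with earlier results of these data known. Genes named are calls with a description and a mean of 5 RPKM or more in the highest group, 1 per description: the 10 largest present in both tissues, the 6 largest in each other class, calls with opposite responses, the 5 with the smallest p where a direction had no call, and the 2 members of each list with the smallest adjusted p. Others named were chosen after their values were seen. Names come from deposited annotation; no sequences or genome positions were used here.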

Additional observations from a re-analysis of the deposited data

Results flagged for a closer look

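The root and leaf responses to phosphorus differed, by the test of the difference itself, in 52 sequences. Among those present in both tissues, the log2 difference was 4.31 for ALDH11A3 LAGI01_24999, 4.25 for CYP76C7 LAGI01_31098, 4.11 for formamidase LAGI01_50013, 3.91 for GAMMA-VPE LAGI01_27411 and 3.28 for ATIREG1 LAGI01_21878. Among those low in leaves, the log2 difference was 5.96 for PAP10 LAGI01_35427 and 5.29 for PAP10 LAGI01_49867. It was 4.92 for PHT5 LAGI01_79525 and 4.36 for PHT5 LAGI01_86377. For FRD3 it was 4.57 in LAGI01_21605, 4.03 in LAGI01_20061 and 3.95 in LAGI01_85917. It was 4.45 for LPR1 LAGI01_52976, 3.91 for LPR2 LAGI01_46294, 4.08 for BHLH038 LAGI01_54427 and 3.8 for BHLH038 LAGI01_51470. It was 5.02 for putative nodulin LAGI01_56202, 4.66 for peroxidase LAGI01_45494, 4.61 for peroxidase LAGI01_58965, 3.57 for malate synthase LAGI01_77756 and 3.28 for malate synthase LAGI01_69392. TPS14 LAGI01_73631, low in roots, had a log2 difference of 2.95. Groups of 3 libraries were too small for a test of single outlying samples.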

How the results depend on the processing

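The difference gave 52 calls with all libraries (both tissues 10, low in leaves 38, low in roots 4, root higher alone 44, list members 24), and the root and leaf responses 243 and 24. These counts moved by over 1.5 times as follows, and except for settings that test fewer libraries or sequences the cause was not tested. Pseudocount 0.1 gave 19 (1, 18, 0, 15 and 14; responses 106 and 3), pseudocount 1 gave 366 root calls. No filter gave 3 in both tissues, 1 low in roots and 3 in leaves, and a filter at 5 gave 0 low in roots and responses of 145 and 5. Median-of-ratios scaling gave responses of 418 and 53; quantile normalization gave 17 in both tissues, 7 low in roots and responses of 432 and 52. Without the trend 1 was low in roots and 46 passed in leaves, and robust moderation gave 45 in leaves. The barcoded libraries alone gave 1559 (890, 156, 460, 96 and 80; responses 442 and 5215), and held 51 of the 52. The replicate block over both tissues gave 16 in both tissues and 158 in leaves. The replicate block within each tissue gave 84 (20 in both tissues, 58 low in leaves) and responses of 565 and 253. The clock covariate left 2 low in roots and 0 in leaves. Values summed per description gave 12 (3 low in leaves, 0 low in roots, 9 root higher alone, 6 on lists; responses 25 and 11). Restricting the test to sequences present in both tissues gave 9, and each tissue fitted alone gave 58 and 0. Presence at a mean of 5 gave 3 in both tissues and 1 low in roots; absence taken as 0 in all 6 libraries gave 34, 17 and 1. Adjusted p under 0.01 gave 25, all low in leaves (0 and 0 in the others), and under 0.1 gave 17 in both tissues.

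Leaving out 1 library at a time gave 28 to 268 calls for the difference (1 to 118 in both tissues, 26 to 56 low in leaves, 0 to 115 low in roots, 26 to 58 root higher alone, 20 to 46 list members), 113 to 347 for roots and 0 to 1487 for leaves. The highest counts for the difference came without sufficient leaf replicate 1 (268) and without deficient leaf replicate 1 (176). Omitting deficient leaf replicate 3 and scaling by median ratios together gave 28 (2 in both tissues, 25 low in leaves, 1 low in roots, 24 root higher alone) and 1 in leaves. Of the named sequences, only the early nodulin LAGI01_71342 changed sign, from -1.74 to 0.26 without deficient root replicate 1, with a range of -2.76 to 0.26 over the libraries left out. DESeq2 and TMM normalization were not run, since no counts were used. The unit, the read depth and the sharing of reads between copies limit every level given, and low sequences most. In the leaves, 1 library with most of its signal in undescribed sequences limits the smaller differences.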

Other observations

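In the barcoded replicates 2 and 3 alone, 1.79% of sequences passed for the difference, and several of the added ones were regulators whose deficient leaf replicates 2 and 3 were low while replicate 1 was not. PAT1 LAGI01_12610, a GRAS factor of phytochrome signalling, was at 31.4, 0.4 and 0.3 RPKM in deficient leaves and 17.2, 15.8 and 25.9 RPKM in sufficient leaves, with 16.8 to 30.5 RPKM in roots. Its difference was 4.57 in those replicates (adjusted p = 0.000186) and 2.67 over all 12 libraries (adjusted p = 0.85), and 8 of 10 PAT1 sequences passed in the barcoded replicates. The zinc finger STZ LAGI01_71204 was at 100.9, 0.6 and 1.5 RPKM in deficient leaves and 34.7, 35.0 and 71.8 RPKM in sufficient leaves. The kinase ATMPK3 LAGI01_32126 was at 35.2, 2.1 and 3.1 RPKM in deficient leaves and 9.0, 24.1 and 117.9 RPKM in sufficient leaves. In these genes replicate 1 was far above both others in deficient leaves. Replicate 1 also differed from the others in sequencing format, and the cause was not tested.

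Some xylem and wall sequences showed the reverse in the same replicates, where 0.284% of all sequences tested were called lower. There 2 of 6 XCP2 sequences passed, with a median difference over the 6 of -0.92. XCP2 LAGI01_33066, a protease of dying xylem vessels, was at 0.4, 35.5 and 15.8 RPKM in deficient leaves and 1.1, 0.8 and 0.1 RPKM in sufficient leaves, and at 27.2 to 172.3 RPKM in roots. Its difference was -5.87 in the barcoded replicates (adjusted p = 7.95e-06) and -3.83 over all 12 libraries (adjusted p = 0.733). FLA11 LAGI01_51665, an arabinogalactan protein of secondary walls, was at 2.4, 24.2 and 16.8 RPKM in deficient leaves and 4.3, 1.5 and 0.6 RPKM in sufficient leaves, and 6 of 8 FLA11 sequences passed in the barcoded replicates. These genes were picked after their values were seen.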
